A study of Mus musculus with 2 samples.

Results

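The genes described are 35 nuclear receptors, among them Esr1, the gene of oestrogen receptor alpha. They are the rows of the authors' deposited table whose gene symbol is on a list of nuclear receptor genes, and they make up 35 of its 38355 genes. Receptors of the circadian clock and those induced as immediate early genes were left out of the list, and each listed symbol had a single row. RNA was sequenced from the heart ventricles of C57BL/6 mice aged 16 weeks, in a study of the T-box transcription factor Tbx5. The labels name 2 samples. The Flox sample is Tbx5LDN/LDN, and the vTBX5KO sample carries the same Tbx5LDN/LDN allele together with Myh6-MerCreMer. In that transgene the Myh6 promoter drives Cre in cardiomyocytes, so that Tbx5 is targeted in these cells and not in the other cells of the ventricle. Per the labels' protocols, which read the same for both genotypes, TX was given at 30 mg/kg per day over 3 days at 12 weeks, and the hearts were taken 4 weeks later.

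The values come from 1 table that compares a group B with a group A. No label, header or note used here ties a letter to a genotype, and no genotype was read from the values. Every direction below is therefore that of group B relative to group A. The deposited means resolved into 6 libraries, 3 of each letter, with size factors between 0.61 and 1.56. The labels do not say whether the 3 libraries of a letter are separate mice. The p-values therefore measure the spread among these libraries, and that spread may be technical. The 13 cardiomyocyte markers all had mean normalized counts of at least 30894, which matches the labelled tissue, and 4 of 7 liver markers were at 0. Tbx5 itself had a log2 fold change of 0.92 (adjusted p = 0.0575, the authors' deposited table). The sources used here do not give which exons the allele removes. In whole tissue, fewer cells of a type and less RNA per cell cannot be told apart.

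Nuclear receptors are transcription factors that carry their own sensor, a ligand-binding domain that is occupied by steroids, thyroid hormone, retinoids, fatty acids, sterols or bile acids. Steroid receptors bind DNA mostly as homodimers, while the receptors for retinoic acid, thyroid hormone, fatty acids and oxysterols pair with a retinoid X receptor. In the heart the family is best known for oestrogen-related receptors and PPARs, which drive mitochondrial and fatty acid oxidation genes, for thyroid hormone receptors, which set the myosin isoform, and for the corticosteroid receptors Nr3c1 and Nr3c2. MerCreMer is Cre recombinase placed between mutated ligand-binding domains of mouse oestrogen receptor alpha, so reads of the transgene can match Esr1.

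Of the 35 receptors, 34 had reads and 29 had an adjusted p. A gene was called when its adjusted p in the authors' deposited table was under 0.05. That rule called 2 receptors, Nr3c2 lower and Rorb higher in group B. Over all 13230 genes with an adjusted p it called 3.98%, with 1.5% higher and 2.49% lower in group B, so the count of receptors was close to that background. At an unadjusted p under 0.05, taking the largest p that each adjusted p allows, there were 5 receptors (Nr3c2, Rorb, Rxrg, Esrra and Rarb) and 1961 of 13230 genes in all (14.8%). For the 2 called receptors, the bases upstream of a RefSeq start are shown (GRCm38.p6, 5′ to 3′ on the strand of the gene). Capitals mark CCAAT, the CCAAT box, which appears as ATTGG where it lies on the opposite strand.
Nr3c2, chr8:76902080-76902287, plus strand: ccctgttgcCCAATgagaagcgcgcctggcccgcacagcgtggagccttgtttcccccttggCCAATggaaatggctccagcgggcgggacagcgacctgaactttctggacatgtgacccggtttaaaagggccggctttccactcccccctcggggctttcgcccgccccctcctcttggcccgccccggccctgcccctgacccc
Rorb, chr19:19111197-19111446, minus strand: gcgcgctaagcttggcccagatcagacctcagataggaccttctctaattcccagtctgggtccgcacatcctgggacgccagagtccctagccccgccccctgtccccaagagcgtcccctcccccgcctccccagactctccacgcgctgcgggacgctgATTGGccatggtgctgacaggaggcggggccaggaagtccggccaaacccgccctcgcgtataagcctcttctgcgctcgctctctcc
The last 42 bases before the Nr3c2 start lie in an annotated exon and are not shown. The Nr3c2 stretch lies inside the deposited span of the gene, which begins at 76899442. Nr3c2 has 2 copies of CCAAT in the 208 bases shown, and Rorb has 1 in 250. Neither stretch holds AGGTCA, the core half-site that nuclear receptors bind, or GGTGTG, the core of the T-box motif. Over the 250 bases upstream of each of 32851 RefSeq starts, searched on both strands, CCAAT was present in 33.8%, AGGTCA in 14.0% and GGTGTG in 16.3%. RefSeq promoters matched 33 of the 35 receptors, with 54 starts, and 19 of these (35.2%) held CCAAT, 9 (16.7%) held AGGTCA and 15 (27.8%) held GGTGTG. A letter match is a description and not evidence of binding.

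The receptors differed widely in level. Esr1 stood first: the authors' deposited table gives it a mean normalized count of 25169, which ranks 61 among all genes. Nr3c1, the glucocorticoid receptor, came next at 4492 in the authors' deposited table, and Esr1 was 5.60 times as high. Esr1 alone made up 53.7% of the summed means of all the receptors. Levels can be compared between genes only per length of exon. Divided by exon length, Esr1 had 1842 per kb, 3.15 times the 585 per kb of Nr3c1. Then followed Esrra at 486, Rxrg at 388, Ppara at 350 and Rxra at 263 per kb. For scale, Tbx5 had 110 per kb. These means are pooled over both groups, with no spread over libraries, so whether neighbours in this order differ cannot be said from them. The value of Esr1 per kb uses its full exon length of 13.7 kb. Reads of the transgene would match only the part for the ligand-binding domain, and scaling by the full length would not hold for them.

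**Figure D1:**
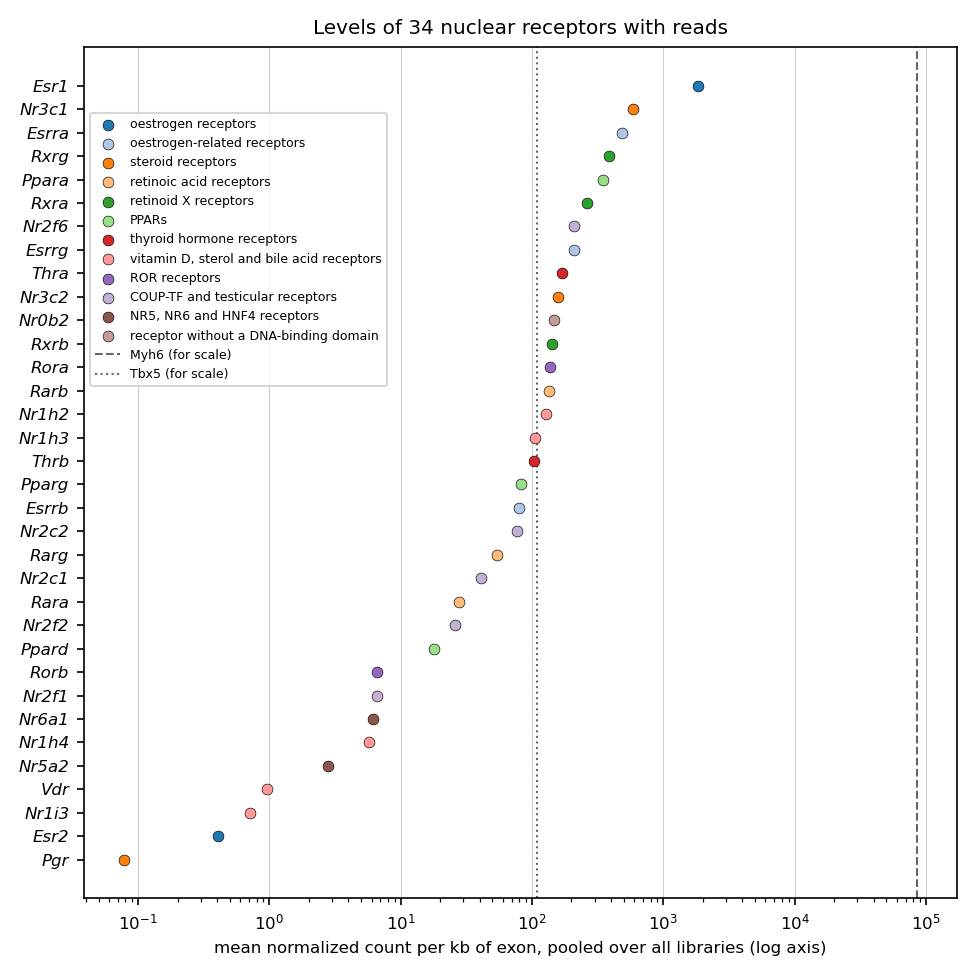
Mean normalized count per kb of exon (log axis) of the 34 nuclear receptors with reads, pooled over all libraries, coloured by receptor class, with Myh6 and Tbx5 as lines for scale. Esr1 lies at 1842 per kb and Nr3c1 at 585, while Pgr and Esr2 lie under 1.

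Esr1 (ENSMUSG00000019768, chromosome 10, 4611593 to 5005614, plus strand) was the only receptor above a mean of 10000. The log2 fold change of Esr1 was -0.31 and its adjusted p 0.712, as listed by the authors' deposited table. The standard error was at most 0.28, which is the largest value that the adjusted p allows, and such upper limits are called standard error bounds below. The reads of Esr1 per library were not recovered, since its mean is too high for that. The deposited fold changes are shrunken towards 0. Undoing the shrinkage, with a prior calibrated on 524 genes with recovered reads, left 2 possible values for Esr1. The narrower was -0.40 on the log2 scale (standard error 0.35), which places the fitted means at 28594 in group A and 21745 in group B. The wider was -1.40 (standard error 1.26), with fitted means of 36512 in group A and 13827 in group B. Of the 521 calibration genes that could be solved, 9 (1.73%) lay nearer to the wider value. These genes all had means under 100, far below that of Esr1. Their share therefore cannot say which value holds for Esr1. At both point values the fitted mean of Esr1 exceeded 10000 in either group. These means leave out the standard errors. With 1.26 on the wider value, the level of Esr1 in each letter stays uncertain. Both values rest on the single deposited adjusted p, which allows an unadjusted p of at most 0.265.

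Esr1 stands beside Myh6, the alpha myosin heavy chain whose promoter drives the transgene, as follows. The authors' deposited table lists Myh6 at a mean of 579178, a log2 fold change of -0.13 and an adjusted p of 0.918. Esr1 reached 4.35% of that mean, or 2.14% per kb of exon, taken over the full exon length of Esr1. Its spread was also wide for so abundant a gene. Of 190 tested genes with means of 10000 or more, the median bound on the standard error was 0.17, and 9 genes had a larger bound than Esr1. The labels list Myh6-MerCreMer in 1 of the 2 genotypes. The levels of Esr1 given above for each letter are fitted and not measured. Which of the Esr1 reads come from the endogenous gene and which from the transgene was not tested, since the table holds no values by exon.

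The other oestrogen receptor, Esr2, had 9 recovered reads in all, with 0, 0 and 2 in the group A libraries and 3, 4 and 0 in those of group B. The groups overlap, and Esr2 had no adjusted p. The progesterone receptor Pgr, a classical oestrogen target, had 0 reads in each group A library and 1, 3 and 1 in group B. No fold is given for Pgr, since a count of 0 allows up to 3 reads and the depths differ, with size factors of 1.16, 0.80 and 0.61 in group A and 1.56, 1.35 and 0.89 in group B.

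Nr3c2, the mineralocorticoid receptor, binds aldosterone and also glucocorticoids (ENSMUSG00000031618, chromosome 8, 76899442 to 77245012, plus strand). It fell in group B. The authors' deposited table lists its mean at 1031 and its log2 fold change at -0.43, which is 1.35-fold lower (standard error bound 0.11, adjusted p = 0.00846). Its reads per library were not recovered, so how the single libraries lie cannot be given. A non-coding gene on the opposite strand, Gm10649, shares 3.82% of its exon length, and that gene had a mean of 6.07. Nr3c1, which binds glucocorticoids, was at -0.11 (standard error bound 0.09, adjusted p = 0.675, the authors' deposited table). The difference between these 2 receptors was not tested. Of the 13 cardiomyocyte markers 1 was called, lower in group B, and the median over them was -0.13. The part of cell composition in the Nr3c2 value was not tested.

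**Figure D2:**
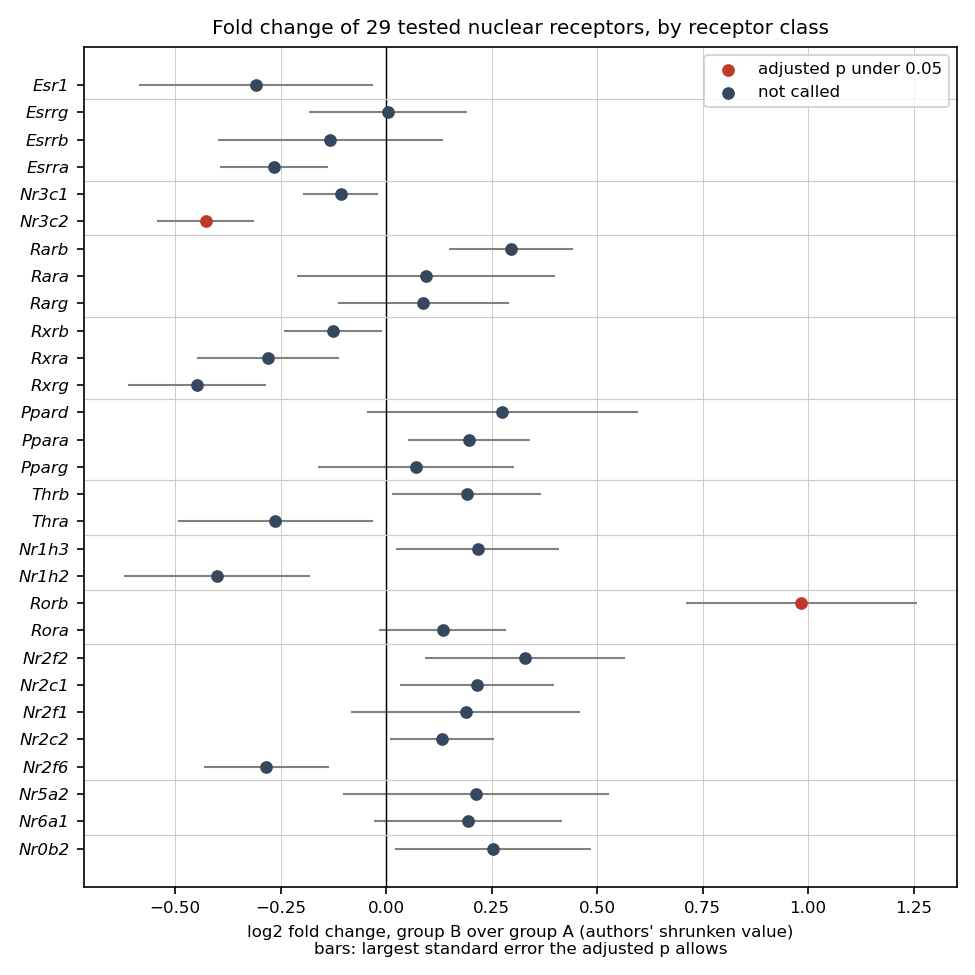
Log2 fold change of group B over group A for the 29 nuclear receptors with an adjusted p, grouped by receptor class. Points are the authors' deposited shrunken values and bars are the largest standard error that the adjusted p allows. Red marks the called receptors, Nr3c2 at -0.43 and Rorb at 0.98.

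Rorb, an orphan receptor of the ROR class known from neurons of the retina and brain (ENSMUSG00000036192, chromosome 19, 18930605 to 19111196, minus strand), rose in group B. Its recovered normalized reads were 38.1, 64.1 and 28.0 in the group A libraries and 109, 126 and 76.3 in the group B libraries. Every group B library lay above every group A library. Group A averaged 43.4 ± 18.6 and group B 104 ± 25.4 (SD, n = 3 each), a ratio of 2.39. The log2 fold change in the authors' deposited table was 0.98, which is 1.98-fold, with a standard error bound of 0.27 and an adjusted p of 0.0136. A limma-voom fit to the recovered reads of 4345 genes put Rorb at 1.29 (standard error 0.30, adjusted p = 0.0755) and did not call it. Limma-voom called 0.575% of its genes (25) and none of its 5 receptors. Of these 5, 1 had an unadjusted p under 0.05, against 593 of all 4345 genes, and limma-trend gave the same count of 1 with no call. Over 9 other settings of the fit the adjusted p of Rorb ran from 0.00115 to 0.369 and passed in 2 of them, without a filter on low counts and without library B3. The log2 fold change lay between 1.10 and 1.59 in these settings. At 6.64 per kb of exon Rorb was a low gene, about as high as Nr2f1 at 6.56.

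Markers of other cells also differed between the letters. All 5 tested platelet markers were called higher in group B, and the summed normalized reads of 6 recovered platelet markers were 42.4, 40.2 and 98.8 in group A and 502, 211 and 116 in group B. Within group B, Rorb was highest in B2 and the platelet sum in B1, and both were lowest in B3. Within group A, Rorb was lowest in A3, where the platelet sum was highest. The relation between them was not tested. The sums of 8 recovered nerve and Schwann cell markers ran the other way, from 163 to 206 in group A and from 112 to 126 in group B, and 2 of 4 tested markers of that list were called lower. No recovered marker of either list was at 0 in all libraries. Of the other lists, 2 of 10 tested macrophage markers and 1 of 11 fibroblast markers were called higher. In the smooth muscle and pericyte list 1 of 10 markers was called lower, as was 1 of 8 atrial markers. No endothelial, adipocyte or red cell marker was called. Called or not, 10 of 10 macrophage, 10 of 11 fibroblast and 8 of 10 smooth muscle and pericyte markers were above 0. So were 7 of 7 red cell, 5 of 5 adipocyte, 5 of 11 endothelial and 1 of 8 atrial markers. The part of these cells in the Rorb value was not tested. Rora, the broadly expressed member of the class, had a log2 fold change of 0.13 (adjusted p = 0.789, the authors' deposited table), at a level of 137 per kb.

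Among the low receptors whose reads were recovered, Nr1h4, the bile acid receptor FXR, also did not overlap between the letters. It had 12.98, 7.54 and 8.24 normalized reads in group A and 19.8, 16.3 and 14.6 in group B. The means were 9.58 ± 2.96 and 16.9 ± 2.67 (SD, n = 3 each), a ratio of 1.76. The table gave Nr1h4 no adjusted p, and limma-voom put it at 0.74 (standard error 0.39, adjusted p = 0.409). Groups without overlap were common in these data, at 19.1% of the 4345 fitted genes, and among the 5 fitted receptors they were Rorb and Nr1h4. Nr1h4 met the filter of 10 reads in 3 libraries only through group B, where it was higher. Its reads there were 31, 22 and 13, against 15, 6 and 5 in group A. Its place among the fitted genes is therefore not independent of its difference.

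The 3 other fitted receptors overlapped between the letters. Nr6a1, the germ cell nuclear factor, had 62.3, 74.1 and 46.1 normalized reads in group A and 83.1, 65.8 and 65.1 in group B, with a limma-voom adjusted p of 0.720. Nr2f1, the orphan receptor COUP-TFI, had 25.1, 36.4 and 31.3 in group A and 46.7, 27.3 and 33.7 in group B, with an adjusted p of 0.787 by limma-voom. For Nr5a2, also known as LRH-1, the values were 15.6, 12.6 and 16.5 against 27.5, 15.5 and 11.2, with a limma-voom adjusted p of 0.834. In each of these 3 receptors B1 was the highest library. B1 was highest in 4 of the 5 fitted receptors, and in 28.0% of all 4345 genes. Without B1 the log2 fold change of Nr2f1 went from 0.23 to -0.01 and that of Nr5a2 from 0.25 to -0.13.

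**Figure D3:**
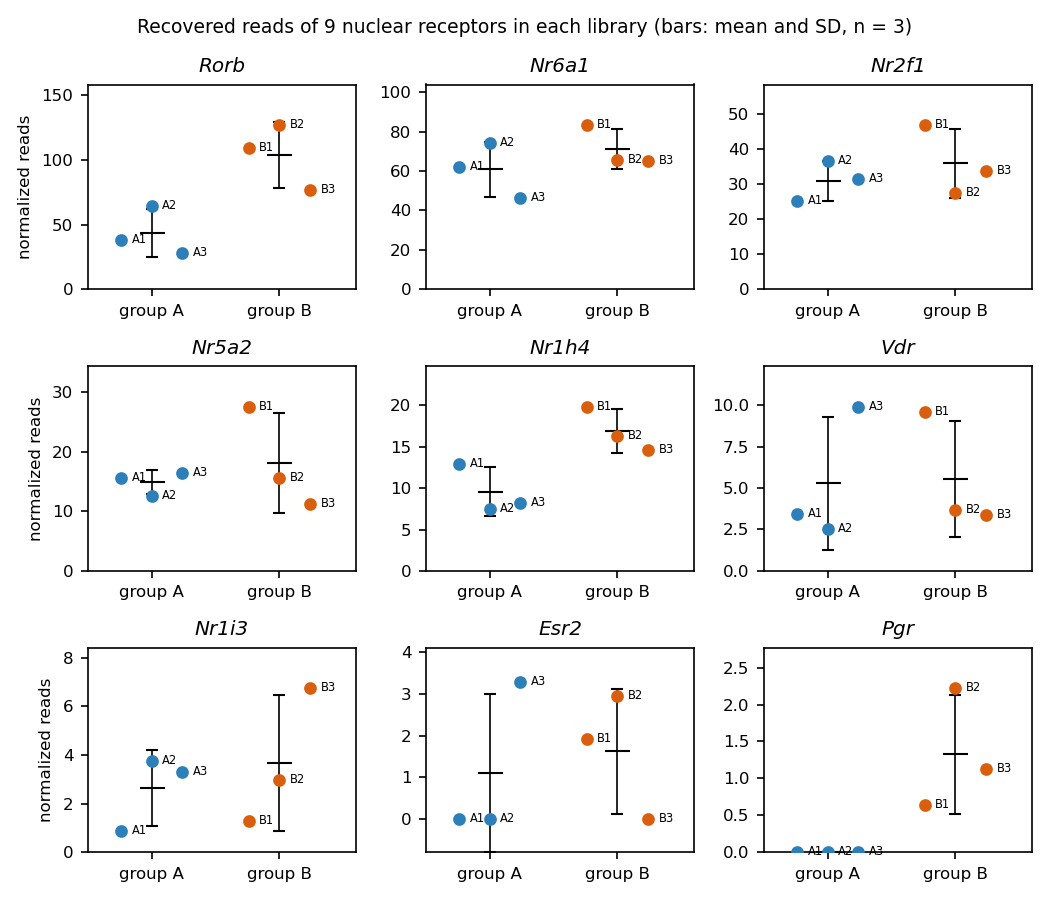
Normalized reads of 9 nuclear receptors in each of the 6 libraries, recovered from the deposited means. Points are single libraries and bars the mean and SD (n = 3), on a linear axis for each gene. Rorb, Nr1h4 and Pgr do not overlap between the groups, Pgr with 5 reads in all. Of the 4345 genes of the limma-voom fit, 19.1% do not overlap. That share does not cover Pgr, Esr2, Vdr and Nr1i3, which were not fitted. B1 is the highest library for Nr6a1, Nr2f1, Nr5a2 and Nr1h4.

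Other receptors with few or no reads were Vdr, Nr1i3 and Hnf4a. Vdr, the vitamin D receptor, had 3.46, 2.51 and 9.88 normalized reads in group A and 9.59, 3.69 and 3.37 in group B, which overlap. Nr1i3, the liver xenobiotic receptor CAR, had 1, 3 and 2 reads against 2, 4 and 6, and 74.9% of its exon length is shared with Tomm40l on the other strand. Hnf4a, a liver and gut receptor, had no reads in any library, where a count of 0 allows up to 3 reads. No difference between the letters was detectable for these genes at this depth.

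The oestrogen-related receptors, orphan receptors that work with Ppargc1a on oxidative metabolism, were not called. Esrra was at -0.27 (standard error bound 0.13, adjusted p = 0.288, the authors' deposited table). Esrrb was at -0.13 with an adjusted p of 0.915 and Esrrg at 0.00 (adjusted p = 0.997, the authors' deposited table). By level Esrra, at 486 per kb, was followed by Esrrg at 209 and Esrrb at 79.1. Their list of mitochondrial and muscle target genes had 14 tested members. All 14 had a log2 fold change under 0, with a median of -0.19 against -0.00 over all tested genes, and 1 was called. That gene was Idh3a, a subunit of the mitochondrial isocitrate dehydrogenase, at -0.49 (adjusted p = 0.00265, the authors' deposited table). Esrra is itself on this list. Cycs and Tfam, also on it, had no adjusted p and lay above 0, at 0.07 and 0.03. All the tested targets had means of at least 1784, and of all genes with a mean of at least 400, 57.0% were below 0, with a median of -0.03. The cardiomyocyte markers lay the same way, with 11 of 13 below 0, and Ckm and Mb are on both lists. The part of these in the values of the targets was not tested.

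The retinoid X receptors, the shared dimer partners, were also all below 0. Rxrg, the isoform of striated muscle and brain, had a log2 fold change of -0.45, the lowest of the 29, with a standard error bound of 0.16 (adjusted p = 0.101, the authors' deposited table). Rxra was at -0.28 with an adjusted p of 0.471 and Rxrb at -0.13 (adjusted p = 0.726, the authors' deposited table). None was called. Their partners, the retinoic acid receptors, were above 0 and not called either. Rarb, itself a retinoic acid target, was at 0.30 (adjusted p = 0.318, the authors' deposited table). It shares 34.1% of its exon length with Top2b on the other strand, which had a log2 fold change of 0.02, and the sources used here do not say whether reads were assigned by strand. The authors' deposited table puts Rara and Rarg both at 0.09 (adjusted p = 0.952 and 0.929). Among 8 tested retinoid targets, with a median of 0.08, 1 was called, Tgm2, a transglutaminase, at -0.34 (adjusted p = 0.0173, the authors' deposited table).

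The PPARs, receptors for fatty acids, had log2 fold changes between 0.07 and 0.28 and none was called. Ppara, the main form of the heart, was at 0.20 with a standard error bound of 0.14 (adjusted p = 0.607, the authors' deposited table). Ppard was at 0.28 with an adjusted p of 0.802, and Pparg, the form of adipocytes, at 0.07 (adjusted p = 0.952, the authors' deposited table). The summed reads of 6 recovered adipocyte markers ranged widely within each letter, at 12.98, 42.7 and 306 in group A and 81.2, 76.1 and 398 in group B. Of 25 tested PPAR targets none was called and 4 had an unadjusted p under 0.05, with a median of 0.02.

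The thyroid hormone receptors lay on either side of 0. Thra, the main form of the heart, was at -0.26 with an adjusted p of 0.704, and Thrb was at 0.19 (adjusted p = 0.725, the authors' deposited table). Thra shares 5.70% of its exon length with the clock receptor Nr1d1 on the other strand. Of 14 tested thyroid hormone targets 8 were below 0, with a median of -0.10, and 1 was called. Thrsp, a lipogenic protein known as Spot 14, rose 1.70-fold, at a log2 fold change of 0.76 (adjusted p = 0.00362, the authors' deposited table). Slc16a10, a transporter of thyroid hormone and aromatic amino acids, fell and was the single called gene among 9 tested genes of ligand transport and binding. Its log2 fold change was -0.42 (adjusted p = 0.0416, the authors' deposited table).

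The oxysterol receptors were also on either side of 0. Nr1h2, or LXR beta, was at -0.40 with a standard error bound of 0.22 (adjusted p = 0.402, the authors' deposited table). Nr1h3, or LXR alpha, was at 0.22 (adjusted p = 0.707, the authors' deposited table). None of 12 tested LXR targets was called and 2 had an unadjusted p under 0.05, with a median of 0.13.

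The orphan receptors of the COUP-TF and testicular receptor classes included no call. Nr2f2, or COUP-TFII, which is needed for atrial identity and for veins, was at 0.33 (adjusted p = 0.594, the authors' deposited table). Nr2f6 was at -0.28 (adjusted p = 0.353, the authors' deposited table), and 54.4% of its exon length is shared with Ocel1, which had a log2 fold change of -0.09. Nr2c1 was at 0.22 with an adjusted p of 0.687 and Nr2c2 at 0.13 (adjusted p = 0.728, the authors' deposited table). Nr2c2 shares 30.7% of its exon length with Mrps25. Nr0b2, or SHP, lacks a DNA-binding domain and represses other receptors. It was at 0.25 (adjusted p = 0.720, the authors' deposited table), and at 147 per kb.

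Across the 29 tested receptors the log2 fold changes ran from -0.45 to 0.98 with a median of 0.09, and 18 were above 0 and 11 below. Over all tested genes the median was -0.00, with 6606 above and 6624 below. Most of the values were small, with 23 of 29 (79.3%) under 0.3 in size, against 77.3% of all genes. The median bound on the standard error was 0.19, against 0.20 for all genes. The negative values lay among the more abundant receptors. Of 17 receptors with a mean of at least 400, 11 (64.7%) were below 0, against 57.0% of 5747 such genes. Of 12 receptors with a lower mean, 0 were below 0, against 44.7% of 7483 genes. The bound of 400 was set after the values were seen, and these shares are a description with no test.

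**Figure D4:**
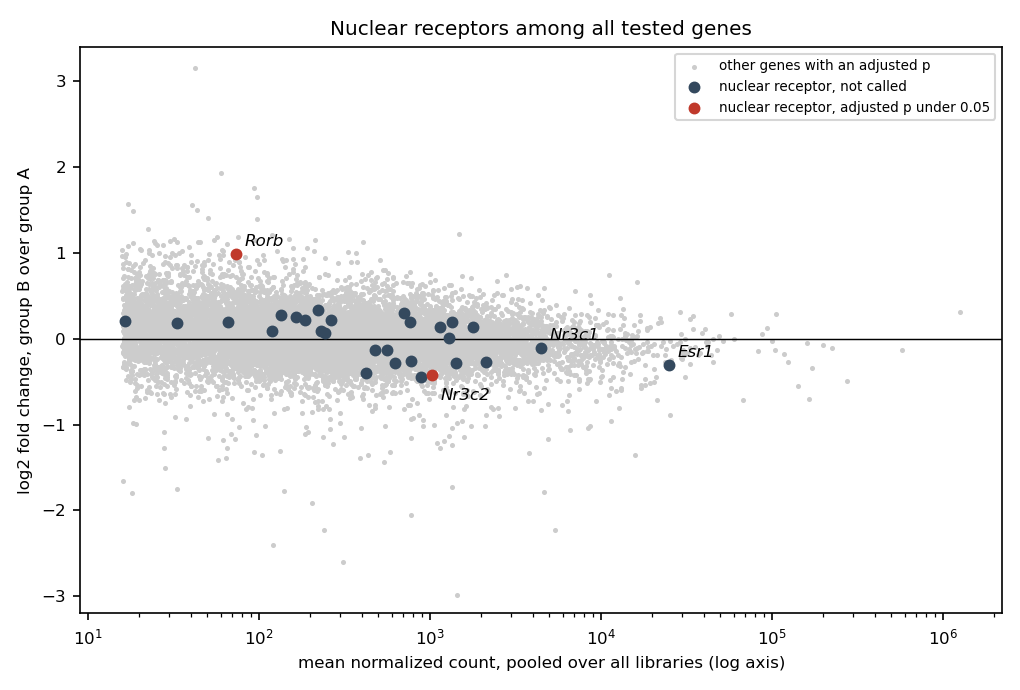
Log2 fold change of group B over group A against the mean normalized count (log axis) for all 13230 genes with an adjusted p, with the 29 tested nuclear receptors in dark blue or, where called, red. The receptors lie within the cloud of all genes. Those with a mean of at least 400 lie on both sides of 0, and those below it lie above 0.

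The proteins that load, activate and silence the receptors were measured too. All 10 tested chaperones of the Hsp90 machinery, which hold steroid receptors ready for ligand, were below 0, with a median of -0.32. Their means were all at least 524, and of all tested genes with a mean of at least 400, 57.0% were below 0. None of the chaperones was called, while 5 had an unadjusted p under 0.05, a threshold that 14.8% of all tested genes passed. That share is also the background of the counts at an unadjusted p for the other lists. The smallest adjusted p was 0.0535, for Fkbp4, an immunophilin of the steroid receptor complex, at -0.36 in the authors' deposited table. Coactivators had 14 tested genes, of which 12 were above 0, with a median of 0.25, no call and 1 unadjusted p under 0.05. Ep300, a histone acetyltransferase, had the smallest adjusted p among them, 0.325, at 0.57 in the authors' deposited table. None of 10 tested corepressors was called and 2 had an unadjusted p under 0.05, with a median of 0.16. Gps2, a subunit of the corepressor complex, was at -0.37 (adjusted p = 0.241, the authors' deposited table). None of 12 tested genes of ligand synthesis and breakdown was called and 2 had an unadjusted p under 0.05, with a median of 0.19. Hsd17b4, a peroxisomal enzyme, was at -0.24 (adjusted p = 0.262, the authors' deposited table).

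Of 18 tested glucocorticoid targets none was called and 3 had an unadjusted p under 0.05, with a median of -0.01. Dusp1, a phosphatase of MAP kinases, was at -0.63 (adjusted p = 0.226, the authors' deposited table). Of 8 tested oestrogen targets 1 was called. It was Ctsd, the lysosomal protease cathepsin D, which fell at -0.52 (adjusted p = 9.10e-07, the authors' deposited table). The median of that list was 0.04. The smallest adjusted p among LXR targets was 0.0771, for Acaca, the first enzyme of fatty acid synthesis, at 0.43 in the authors' deposited table. Among 7 tested receptors outside the list none was called and 3 had an unadjusted p under 0.05. Nr4a1, an immediate early receptor, was at -0.82 (adjusted p = 0.0654, the authors' deposited table). Over the lists together 5 of 151 tested genes were called, beside 3.98% of all genes. These lists are described by counts and medians, and no list was tested against other genes.

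**Figure D5:**
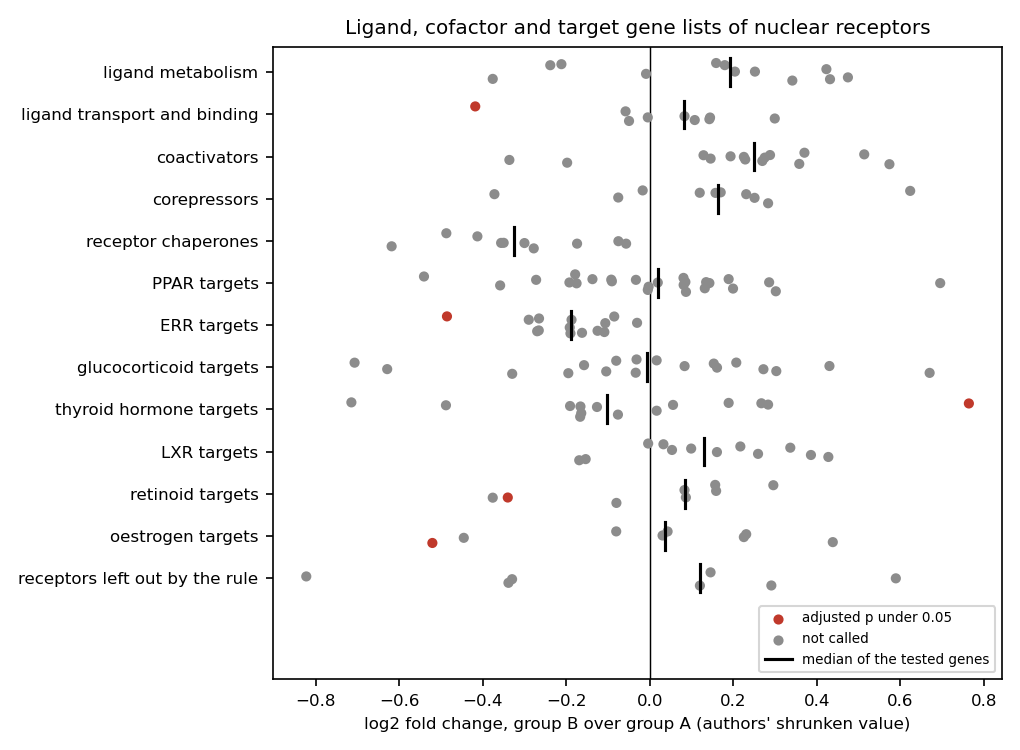
Log2 fold change of group B over group A for the tested genes of 13 lists of ligand enzymes, transporters, cofactors, chaperones and target genes. Points are genes, with called genes in red, and black bars are list medians. The 10 chaperones and the 14 targets of oestrogen-related receptors all lie below 0, with medians of -0.32 and -0.19. All of these have means of at least 400, where 57.0% of all tested genes lie below 0. Cycs and Tfam, listed targets without an adjusted p, are not shown and lie at 0.07 and 0.03.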

How the data were processed

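The source is 1 deposited table of a comparison of group B with group A. Per the file headers its values per gene are a mean normalized count (a signal pooled over both groups, in which reads were scaled by library), a log2 fold change, an adjusted p-value, and a gene span in bases. Per the submitters' processing notes the tools were Bowtie2 2.0 and DESeq2 and the build mm9. Coordinates are given as GRCm38, since 25481 of 36602 matched genes (69.6%) are identical to GENCODE M21. The deposited log2 fold changes are shrunken towards 0. The sources used here do not state how reads were counted or whether strand was used.

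The members and gene lists were chosen with earlier results of these data known. All 35 receptors are named. Of each pathway list the called genes are named, up to 4, or else the 1 with the smallest adjusted p, and markers are given by counts. For the PPAR targets the gene named by this rule is not reported here. Standard errors are upper bounds from inverting the Benjamini-Hochberg adjustment. Exon length is from GENCODE M21. Reads per library were recovered as the whole numbers whose scaled sum equals the deposited mean to 15 digits. Below a mean of 100 a single solution existed for 13384 of 13403 genes (99.9%), with a relative difference of at most 5.00e-15, and with shifted steps 0% of 2378 genes had one. The recovery was tested on simulated data. The letter of a library came from the sign of the fold change of genes with a single read. Size factors were 1.16, 0.80 and 0.61 for A1 to A3 and 1.56, 1.35 and 0.89 for B1 to B3. Total depth was not recovered. Intervals and floors cover counting error only.

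The planned count model on recovered reads was not used, because the table has no count column. limma 3.58.1 (voom, Benjamini-Hochberg adjustment) was fitted instead to 4345 genes with at least 10 reads in 3 libraries, with the size factors of the libraries, and was tested on simulated data. R 4.3.3, Python 3.11.15 and scipy 1.17.1 were used. Alternatives were the threshold, the filter, the scaling, limma-trend with a pseudocount of 0.5, and leaving out each library.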

Additional observations from a re-analysis of the deposited data

How the results depend on the processing

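At an adjusted p under 0.01, 1 receptor was called (Nr3c2) in place of 2. Under 0.1, and over genes with a mean of at least 50, both calls were kept and no other receptor was added. The pathway lists had 3 calls under 0.01 and 12 under 0.1, against 5. The shares of all genes under 0.01 and under 0.1 were not computed. The counts at these thresholds therefore cannot be set against a background. In the limma-voom fit 0 of 5 receptors were called. Without a filter on low counts 1 was called, Rorb, at an adjusted p of 0.00115. Leaving out each library in turn gave 0 to 1 calls, with the 1 call made without B3. Over the same omissions the log2 fold change ran from -0.0090 to 0.43 for Nr2f1 and from -0.13 to 0.48 for Nr5a2, and both were below 0 without B1. All genes called by limma-voom numbered 25, and 8, 2 and 20 without A1, A2 and A3, 42, 2 and 130 without B1, B2 and B3, 223 of 13384 genes with no filter, 33 by limma-trend and 32 with size factors from the recovered genes. That rescaling moved the median log2 fold change of the fitted genes from 0.12 to -0.01, a shift of -0.13, and changed no direction of the 5 receptors. For Esr1 the values without shrinkage were -0.40 and -1.40, whose sign is fixed by construction. The fits without shrinkage, by limma-trend and with rescaling were chosen after seeing the data. The cause of these changes was not tested. The planned negative binomial count models and their scaling were not run, because the table has no count column, nor was leaving out libraries for Esr1, whose reads were not recovered. No paired analysis was possible because the libraries carry no replicate numbers from the labels. Depth limits Esr2, Pgr, Vdr and Nr1i3, with 5 to 35 reads in all.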
